A study of Homo sapiens with 12 samples.

Results

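Clade B serpins are the mostly intracellular branch of the serpin superfamily, here described in a pair of human pancreatic cancer cell lines, AsPC1 and BxPC3, and in a cisplatin-resistant derivative of each. The set was defined by gene symbol as 10 genes, SERPINB1 to SERPINB9 and SERPINB13. For 8 of them the probe annotation gave a probe set with that symbol alone, out of 18417 genes so measured, and SERPINB2 and SERPINB6 were not analysed here. Expression was read from total RNA on 12 Affymetrix arrays, 3 for each of the lines AsPC1, AsPC1-R, BxPC3 and BxPC3-R. AsPC1-R was maintained in medium with 1.67 µM cisplatin, a platinum drug that crosslinks DNA, and BxPC3-R in medium with 0.60 µM. The last passage before harvest was free of drug, so none of the cells was taken under cisplatin. Each parental line is represented by a single resistant derivative, and the sources used here do not say whether it is a clone or a pool.

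A serpin inhibits a protease by offering its reactive centre loop as bait. Cleavage of the loop triggers a change of shape that traps the protease in a covalent complex. Clade B members lack a classical secretion signal and act mainly inside cells, against proteases that escape from granules or lysosomes, although several are also released. SERPINB5 (maspin) is an exception that does not inhibit proteases. Maspin is a familiar marker of pancreatic ductal adenocarcinoma, while SERPINB3 and SERPINB4 were first described as squamous cell carcinoma antigens.

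Levels are log2 values, so a difference of 1 is a doubling of signal, and the array medians lay between 6.48 and 6.65. Precision is set by the small number of arrays, and background was not measured. SMAD4, which is known to be deleted in BxPC3, still read 4.70 ± 0.49 there (mean ± SD, n = 3), against 9.90 ± 0.14 in AsPC1, so the size of a difference that reaches down to such levels is uncertain. The mean over 5 epithelial markers (EPCAM, KRT8, KRT18, KRT19 and CDH1) lay between 10.98 and 12.14 on every array, far above the array medians. Of them 2 fell in AsPC1-R at an adjusted p under 0.05 by limma, KRT18 at -0.51 and CDH1 at -0.46, where 8.64% of all genes fell. By the same threshold 2 rose in BxPC3-R, KRT8 at 1.12 and KRT18 at 0.78, where 9.75% of all genes rose. BxPC3 replicate 2 stood apart: the 50 genes that most favour AsPC1 relative to BxPC3-R all had their top BxPC3 value on that array, with a median excess of 0.83. Replicates are separate samples by their labels, with no word on separate cultures, so p-values measure the spread between these samples, which may be technical. In bulk RNA, fewer cells expressing a gene and less RNA per cell cannot be told apart.

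The parental lines differed in every measured member of the set. All 8 measured members differed between AsPC1 and BxPC3 at an adjusted p under 0.05 by limma, 7 lower and 1 higher in AsPC1, where 50.6% of all genes tested differed, 22.9% lower and 27.7% higher. In all 8 the AsPC1 and BxPC3 arrays did not overlap, which held for 54.3% of all genes. The median difference over the members, AsPC1 minus BxPC3, was -2.26, against 0.11 over all genes. SERPINB3, SERPINB4, SERPINB7 and SERPINB13 were 7.09-fold to 73.4-fold higher in BxPC3, SERPINB8 and SERPINB9 were 3.26-fold and 3.18-fold higher there, and SERPINB1 and SERPINB5 differed by less than 2-fold. A call with at least a 2-fold difference thus held for 6 of 8 members, against 11.1% of all genes.

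SERPINB3 inhibits cathepsin L-like cysteine proteases. Its level was 10.16, 9.85 and 9.66 on the BxPC3 arrays and 8.27, 8.25 and 8.53 on the BxPC3-R arrays. In AsPC1 it read 3.52, 4.20 and 3.35, and in AsPC1-R 3.60, 4.13 and 4.12. Every BxPC3 array thus lay above every BxPC3-R array, and both groups lay far above the AsPC1 and AsPC1-R arrays, which overlapped. The gene fell in BxPC3-R by 1.54 on the log2 scale (SE 0.21, adjusted p = 0.000104), which is 2.91-fold. In AsPC1-R the change was 0.26 (SE 0.21, 95% confidence interval -0.18 to 0.70, adjusted p = 0.419), between levels that may be background. The parental difference, AsPC1 minus BxPC3, was -6.20 (SE 0.21, adjusted p = 9.14e-12), with its size uncertain because the AsPC1 values are so low.

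SERPINB4, the neighbouring paralogue, inhibits chymotrypsin-like serine proteases such as cathepsin G. Its probe set read 7.16, 6.93 and 6.39 in BxPC3 and 5.09, 4.68 and 4.89 in BxPC3-R. The AsPC1 arrays stood at 3.99, 3.51 and 3.18 and the AsPC1-R arrays at 3.72, 3.98 and 3.59. The ranges of BxPC3 and BxPC3-R did not overlap, and those of AsPC1 and AsPC1-R did. SERPINB4 fell in BxPC3-R by 1.94 (SE 0.21, adjusted p = 1.60e-05), and its change in AsPC1-R was 0.21 (SE 0.21, 95% confidence interval -0.25 to 0.66, adjusted p = 0.534). Between the parental lines, AsPC1 minus BxPC3, the difference was -3.27 (SE 0.21, adjusted p = 1.12e-08). The fall ends near the level of deleted SMAD4, so its size is uncertain. The genes are near-identical copies, so a probe set named for 1 of them can take up signal of the other, and their separate sizes are uncertain. Within BxPC3 the array with the highest SERPINB3 value also had the highest SERPINB4 value, and the array with the lowest had the lowest. The other lines did not share both: BxPC3-R and AsPC1 shared only the lowest array, and AsPC1-R only the highest.

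The likeness of the pair extends to their promoters, shown here because both genes fell in BxPC3-R. The 250 bases before the start of each gene, from RefSeq on GRCh38.p14, lie at chr18:63661894-63662143 for SERPINB3 and chr18:63644257-63644506 for SERPINB4, both on the minus strand. They are printed 5′ to 3′ with the differing bases in capitals.
SERPINB3: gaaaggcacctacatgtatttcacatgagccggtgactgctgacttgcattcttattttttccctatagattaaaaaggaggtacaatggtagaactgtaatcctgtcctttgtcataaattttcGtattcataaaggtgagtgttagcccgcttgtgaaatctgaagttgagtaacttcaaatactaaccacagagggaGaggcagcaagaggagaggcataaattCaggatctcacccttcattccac
SERPINB4: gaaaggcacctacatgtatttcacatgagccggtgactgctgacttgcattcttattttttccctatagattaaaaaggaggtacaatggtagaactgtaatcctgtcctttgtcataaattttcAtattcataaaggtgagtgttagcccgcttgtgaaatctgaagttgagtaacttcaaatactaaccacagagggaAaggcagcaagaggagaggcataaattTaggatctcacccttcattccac
The windows are identical at 247 of 250 positions (98.8%). Counted from 1 at the 5′ end, with the SERPINB4 base first and the SERPINB3 base last, the differences are A126G, A201G and T228C. Among all other pairs of member windows, with the first-listed window of each gene, no identity was above 54.9%, which was that of SERPINB2 and SERPINB4.

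**Figure D1:**
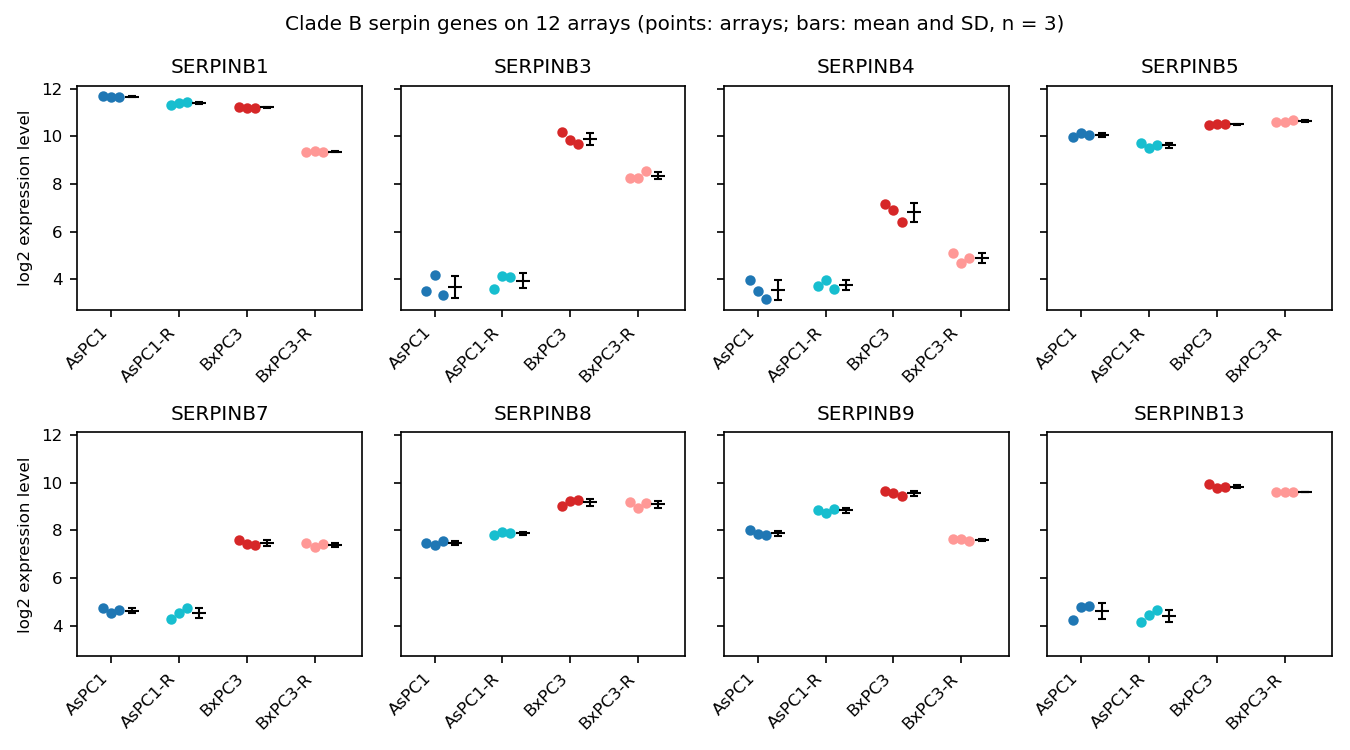
Log2 expression level (vertical axis, shared by all panels) of the 8 measured clade B serpin genes on each of the 12 arrays, with the mean and SD of the 3 arrays per line beside the points. SERPINB3 falls from 9.89 in BxPC3 to 8.35 in BxPC3-R and SERPINB9 from 9.56 to 7.60, while SERPINB7 and SERPINB13 separate the AsPC1 pair from the BxPC3 pair; heights are not comparable between panels, since each comes from its own probe set.

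SERPINB13 (headpin), a squamous epithelial inhibitor of cathepsins L and K, marked the BxPC3 pair without a called change in either derivative. It read 9.93, 9.79 and 9.81 in BxPC3 and 9.63, 9.61 and 9.61 in BxPC3-R. In AsPC1 it stood at 4.23, 4.78 and 4.86 and in AsPC1-R at 4.17, 4.44 and 4.68. All BxPC3-R arrays were below all BxPC3 arrays, yet the change of -0.22 (SE 0.15, 95% confidence interval -0.55 to 0.10) had an adjusted p of 0.367. In AsPC1-R it was -0.19 (SE 0.15, 95% confidence interval -0.52 to 0.13, adjusted p = 0.414), with overlapping arrays. Between the parental lines, AsPC1 minus BxPC3, the difference was -5.22 (SE 0.15, adjusted p = 2.12e-12), again reaching down to very low levels.

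SERPINB7 (megsin), known for its part in the skin barrier, had the same layout. The BxPC3 arrays read 7.62, 7.42 and 7.38 and the BxPC3-R arrays 7.47, 7.31 and 7.42. In AsPC1 the gene read 4.74, 4.53 and 4.67, and in AsPC1-R 4.31, 4.56 and 4.74. Parental and resistant arrays overlapped in both lines. The changes were -0.08 in BxPC3-R (SE 0.11, 95% confidence interval -0.31 to 0.16, adjusted p = 0.726) and -0.11 in AsPC1-R (SE 0.11, 95% confidence interval -0.35 to 0.13, adjusted p = 0.524). The parental difference was -2.83 (SE 0.11, adjusted p = 4.75e-11).

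SERPINB9 inhibits granzyme B and protects cytotoxic lymphocytes, and target cells, from that protease. Its level was 9.65, 9.59 and 9.45 in BxPC3, and the BxPC3-R arrays read 7.63, 7.63 and 7.56. In AsPC1 it read 8.01, 7.87 and 7.80 and in AsPC1-R 8.87, 8.74 and 8.91. The groups did not overlap, and they ran from BxPC3 at the top through AsPC1-R and AsPC1 to BxPC3-R. SERPINB9 rose in AsPC1-R by 0.95 (SE 0.09, adjusted p = 2.77e-06), which is 1.93-fold, and fell in BxPC3-R by 1.96 (SE 0.09, adjusted p = 3.63e-09), which is 3.89-fold. The difference between these changes was 2.91 (SE 0.12, adjusted p = 9.72e-10). The parental difference, AsPC1 minus BxPC3, was -1.67 (SE 0.09, adjusted p = 9.62e-10), and that of the derivatives, AsPC1-R minus BxPC3-R, had the opposite sign at 1.24 (SE 0.09, adjusted p = 3.13e-08).

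The transcribed pseudogene SERPINB9P1, next to SERPINB9 and named here after its values were seen, has a probe set of its own. It changed by 0.59 in AsPC1-R (SE 0.15, adjusted p = 0.0107) and by -1.20 in BxPC3-R (SE 0.15, adjusted p = 4.64e-05). As a copy of SERPINB9 it may share signal with it, and the antisense gene SERPINB9-AS1 overlaps SERPINB9. Whether the deposited values separate these transcripts was not tested.

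SERPINB1, the leukocyte elastase inhibitor, blocks neutrophil elastase, proteinase 3 and cathepsin G. It read 11.68, 11.65 and 11.64 in AsPC1 and 11.32, 11.41 and 11.43 in AsPC1-R. The BxPC3 arrays stood at 11.25, 11.19 and 11.18, and the BxPC3-R arrays at 9.33, 9.39 and 9.35. The groups did not overlap, and BxPC3-R lay well below the others. SERPINB1 fell in BxPC3-R by 1.85 (SE 0.07, adjusted p = 1.03e-09), which is 3.60-fold. It fell in AsPC1-R as well, by 0.27 (SE 0.07, adjusted p = 0.0137), but this call was lost without AsPC1-R replicate 1 (adjusted p = 0.0683) and with only AsPC1 and AsPC1-R in the fit (adjusted p = 0.0750). The difference between the changes was 1.58 (SE 0.10, adjusted p = 5.98e-08). AsPC1 exceeded BxPC3 by 0.45 (SE 0.07, adjusted p = 9.84e-05) and AsPC1-R exceeded BxPC3-R by 2.03 (SE 0.07, adjusted p = 1.88e-11).

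SERPINB1 and SERPINB9 are near neighbours on chromosome 6, and their promoters are shown because both genes fell in BxPC3-R by at least 2-fold. The windows of 250 bases before the start, from RefSeq on GRCh38.p14 and both on the minus strand, lie at chr6:2841864-2842113 and chr6:2903310-2903559. Capitals mark a loose form of the NF-kB consensus on either strand, whose matches can overlap each other, and in SERPINB9 the TATA box letters TATAAA.
SERPINB1: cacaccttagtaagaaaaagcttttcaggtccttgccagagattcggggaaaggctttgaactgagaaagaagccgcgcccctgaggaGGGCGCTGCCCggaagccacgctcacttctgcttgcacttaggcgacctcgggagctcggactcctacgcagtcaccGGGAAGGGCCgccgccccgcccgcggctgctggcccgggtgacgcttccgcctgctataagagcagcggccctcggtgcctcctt
SERPINB9: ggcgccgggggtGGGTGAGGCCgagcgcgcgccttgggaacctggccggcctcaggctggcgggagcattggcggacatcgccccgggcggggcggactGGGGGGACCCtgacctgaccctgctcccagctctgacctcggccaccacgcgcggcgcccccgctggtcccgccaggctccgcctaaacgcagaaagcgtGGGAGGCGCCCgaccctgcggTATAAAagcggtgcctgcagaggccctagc
The loose NF-kB consensus was present in both, and in 54.4% of all 35116 promoter windows of this length. SERPINB9 holds TATAAA from 30 to 25 bases before its start, a motif found on either strand in 10.7% of all windows. The windows are rich in G and C, at 63.6% and 74.4%, against 40.8% and 39.6% for SERPINB3 and SERPINB4 and a median of 58.0% over all windows.

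SERPINB8 is an inhibitor of furin, the proprotein convertase. Its level was 7.48, 7.40 and 7.55 in AsPC1 and 7.82, 7.92 and 7.92 in AsPC1-R. In BxPC3 it read 9.02, 9.24 and 9.28 and in BxPC3-R 9.20, 8.92 and 9.16. The AsPC1-R arrays all lay above the AsPC1 arrays, and the BxPC3 and BxPC3-R arrays overlapped. SERPINB8 rose in AsPC1-R by 0.41 (SE 0.10, adjusted p = 0.00794) and changed by -0.08 in BxPC3-R (SE 0.10, 95% confidence interval -0.29 to 0.12, adjusted p = 0.636). The difference between the changes was 0.50 (SE 0.14, adjusted p = 0.0162). AsPC1 lay below BxPC3 with a difference of -1.70 (SE 0.10, adjusted p = 2.96e-09).

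SERPINB5, maspin, was bright in every line. It read 9.97, 10.12 and 10.05 in AsPC1 and 9.73, 9.52 and 9.63 in AsPC1-R. The BxPC3 arrays stood at 10.47, 10.51 and 10.52 and the BxPC3-R arrays at 10.61, 10.62 and 10.68. The 4 groups did not overlap, with BxPC3-R highest and AsPC1-R lowest. SERPINB5 fell in AsPC1-R by 0.42 (SE 0.08, adjusted p = 0.00161), while in BxPC3-R the change was 0.14 (SE 0.08, 95% confidence interval -0.03 to 0.30, adjusted p = 0.277). The changes differed by -0.55 (SE 0.11, adjusted p = 0.00199), the only negative difference among the members called. The gap between the lines, AsPC1 minus BxPC3, was -0.45 for the parental pair (SE 0.08, adjusted p = 2.72e-04) and -1.01 for the derivatives (SE 0.08, adjusted p = 1.02e-07).

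**Figure D2:**
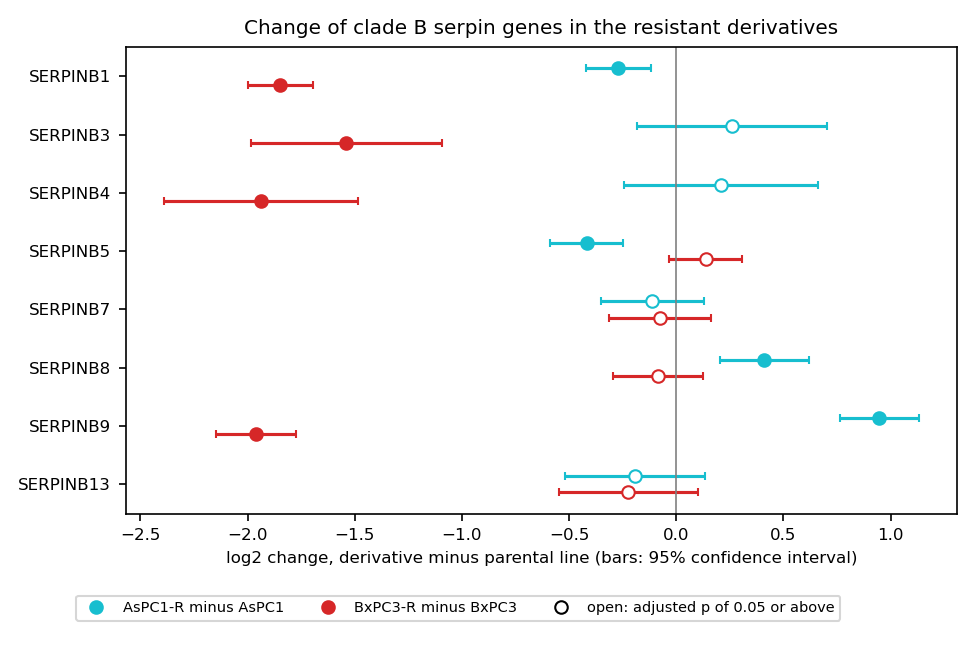
Log2 change of each measured member in AsPC1-R against AsPC1 and in BxPC3-R against BxPC3 (horizontal axis) with its 95% confidence interval from limma; open points have an adjusted p of 0.05 or above. SERPINB9 lies at 0.95 in AsPC1-R and -1.96 in BxPC3-R, and SERPINB1, SERPINB3 and SERPINB4 lie between -1.54 and -1.94 in BxPC3-R.

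Counted over the set, AsPC1-R had 2 rises (SERPINB8 and SERPINB9), 2 falls (SERPINB1 and SERPINB5) and 4 members without a call, where 20.3% of all genes tested were called, 11.6% higher and 8.64% lower. With all arrays 0 of the 8 reached a called 2-fold change, which 2.33% of all genes did, but SERPINB9 did so without AsPC1 replicate 1, at 1.0045. Its arrays did not overlap those of AsPC1 for 4 of 8 members, against 33.4% of all genes. The median change over the members was 0.05, against -0.05 over all genes. BxPC3-R had 0 rises and 4 falls, of SERPINB1, SERPINB3, SERPINB4 and SERPINB9, where 20.8% of all genes were called, 9.75% higher and 11% lower. All 4 of these falls were at least 2-fold, a size reached with a call by 2.32% of all genes. Its arrays did not overlap those of BxPC3 for 6 of 8 members, against 38.2% of all genes, and the median change was -0.88, against 0.02. Without BxPC3 replicate 2 the same 4 members were called, at -1.86, -1.56, -1.89 and -1.95.

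The derivatives' changes differed by the interaction test for 6 of 8 members, where 25.4% of all genes were called, 14.1% higher and 11.3% lower. A difference of at least 2-fold was called for SERPINB1, SERPINB3, SERPINB4 and SERPINB9, 4 of 8, against 6.28% of all genes. SERPINB3 and SERPINB4 may be at background in the AsPC1 pair, where a fall could not have been seen. Of the 6, SERPINB1, SERPINB3, SERPINB4, SERPINB8 and SERPINB9 had the higher change in AsPC1-R, and SERPINB5 had the lower one there. SERPINB9 alone was called in opposite directions in the derivatives. For SERPINB7 and SERPINB13 the differences were -0.04 (95% confidence interval -0.37 to 0.30, adjusted p = 0.895) and 0.03 (95% confidence interval -0.43 to 0.49, adjusted p = 0.934). Both genes also read low in the AsPC1 pair, so a fall there could have been missed.

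Between the derivatives all 8 members differed, 6 lower and 2 higher in AsPC1-R, where 43.3% of all genes did, 22% lower and 21.3% higher. All 8 differed by at least 2-fold, against 10.4% of all genes. SERPINB5, at 2.01-fold, fell short of it without AsPC1-R replicate 2 (-0.95), without BxPC3-R replicate 3 (-0.99) and with quantile normalization once more (-0.96), and for SERPINB4 both means lie near or under the level of deleted SMAD4. In all 8 the arrays did not overlap, which held for 55.4% of all genes. The 2 higher ones were SERPINB1 and SERPINB9, both on chromosome 6. The difference, AsPC1-R minus BxPC3-R, was -5.19 for SERPINB13 (SE 0.15), -4.40 for SERPINB3 (SE 0.21) and -2.86 for SERPINB7 (SE 0.11). It was -1.21 for SERPINB8 (SE 0.10) and -1.12 for SERPINB4 (SE 0.21).

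Gene order separates the set into a pair of clusters. In the RefSeq table of GRCh38.p14, 3 of the 10 genes lie on chromosome 6 and 7 on chromosome 18, where the cluster also holds SERPINB10, SERPINB11 and SERPINB12. SERPINB10 (bomapin), best known from blood cells, read 4.95, 4.95 and 4.70 in BxPC3 and 5.60, 5.78 and 5.66 in BxPC3-R. It rose there by 0.81 (SE 0.13, adjusted p = 5.72e-04) and stood at 4.15 ± 0.32 in AsPC1 and 4.12 ± 0.08 in AsPC1-R (mean ± SD, n = 3). These levels are low, so the size of the rise is uncertain. SERPINB11 and SERPINB12 read between 3.10 and 3.86 on every array, with no call in any comparison; at such levels, under that of deleted SMAD4 in BxPC3, no difference could be read.

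The nearest tested genes on both sides of each cluster were set beside the members. Of the 6 next to SERPINB1 and SERPINB9, 1 fell in BxPC3-R, BPHL at -0.40 (SE 0.11, adjusted p = 0.0156), and 0 rose, where 20.8% of all genes were called. In AsPC1-R 1 of these 6 rose, TUBB2A at 0.52 (SE 0.12, adjusted p = 0.00845), and 0 fell, where 20.3% were called. TUBB2A was also called in the interaction test, at 0.70 (SE 0.18, adjusted p = 0.00927), in the direction of SERPINB9. WRNIP1 and NQO2, the nearest tested genes on either side of the measured pair, stood in BxPC3-R at -0.17 (SE 0.09, adjusted p = 0.240) and -0.14 (SE 0.09, adjusted p = 0.368). Of the 6 around the chromosome 18 cluster, 2 rose in BxPC3-R, BCL2 at 0.33 (SE 0.09, adjusted p = 0.0216) and DSEL 3.99-fold (SE 0.24 on the log2 scale, adjusted p = 3.48e-05), and 0 fell. In AsPC1-R 0 of these 6 were called. CDH7, CDH19 and DSEL read 4.81, 4.18 and 4.62 in AsPC1, so a fall of these genes could have been missed. Between the parental lines 4 of the 6 were lower in AsPC1 and 1 higher, where 50.6% of all genes were called. VPS4B, KDSR and BCL2, which precede SERPINB5, differed by -0.91, -0.68 and -0.52 (SE 0.07, 0.08 and 0.09), AsPC1 minus BxPC3. On the far side of SERPINB8, DSEL differed by -2.74 (SE 0.24) and CDH7 by 0.51 (SE 0.13), and CDH19 read 4.18 in both lines. CDH7 read 4.31 in BxPC3, so both of its means are low and its difference is uncertain. The size of the DSEL difference is uncertain too, since its AsPC1 mean is low.

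**Figure D3:**
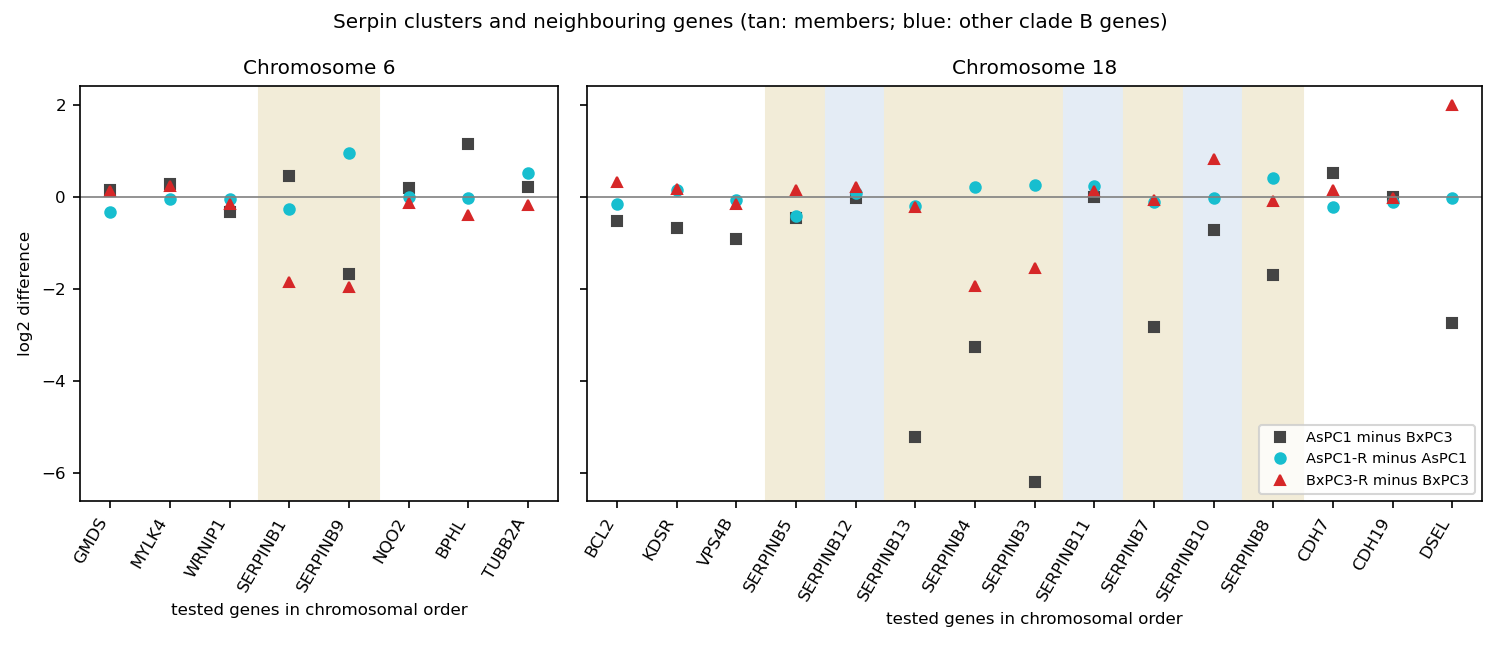
Log2 difference (vertical axis) of tested genes placed in chromosomal order along the chromosome 6 and chromosome 18 clusters, for AsPC1 minus BxPC3 and for each derivative minus its parental line. The parental differences of the members reach -6.20 at SERPINB3 and -5.22 at SERPINB13. SERPINB11 and SERPINB12 read too low in every line for a difference to be seen.

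The promoter of SERPINB13 is printed because the gene separated the BxPC3 pair from the AsPC1 pair without a called change in a derivative. Its 250 bases before the start lie at chr18:63587093-63587342 on the plus strand of GRCh38.p14, with capitals on TGANTCA, a loose form of the AP-1 site.
SERPINB13: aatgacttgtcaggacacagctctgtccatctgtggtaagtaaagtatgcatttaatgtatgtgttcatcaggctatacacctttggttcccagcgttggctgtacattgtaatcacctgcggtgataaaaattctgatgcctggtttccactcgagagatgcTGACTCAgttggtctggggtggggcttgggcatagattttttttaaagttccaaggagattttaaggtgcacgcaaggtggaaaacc
Windows were listed for all 10 genes, 15 windows in all, since SERPINB6 and SERPINB7 have several starts. TGANTCA was found in 6 of the 15, in SERPINB2, SERPINB5, SERPINB8, SERPINB13 and 2 windows of SERPINB7, against 6.57% of all windows. TATAAA was found in 4 of the 15, against 10.7% of all windows, and the loose NF-kB consensus in 8, against 54.4%. Of the 15 windows, 2 of SERPINB6 overlap and hold the same NF-kB match, so they are not separate. The core of the interferon-stimulated response element was found in 0 of the 15, against 3.02% of all windows. These matches describe letters in a short window and no binding was measured.

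The proteases that clade B serpins are known to inhibit were measured for all 16 genes listed. In AsPC1-R 6 rose and 2 fell, against 20.3% of all genes called, with a median change over the list of 0.05. In BxPC3-R 0 rose and 6 fell, against 20.8%, with a median of -0.11. The plasminogen activator genes PLAT and PLAU, targets of SERPINB2, rose in AsPC1-R by 1.98 (SE 0.11, adjusted p = 1.60e-08), which is 3.93-fold, and by 2.82-fold (SE 0.08 on the log2 scale, adjusted p = 9.16e-09). In BxPC3-R they fell by 1.11 (SE 0.11, adjusted p = 6.15e-06) and 0.56 (SE 0.08, adjusted p = 1.32e-04).

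Among the cysteine proteases, CTSL, a target of SERPINB3 and SERPINB13, read 10.11 in AsPC1, 11.21 in AsPC1-R, 11.72 in BxPC3 and 11.17 in BxPC3-R as group means. It rose in AsPC1-R by 1.10 (SE 0.12) and fell in BxPC3-R by 0.56 (SE 0.12). CTSV rose in AsPC1-R by 0.98 (SE 0.15) and changed by 0.33 in BxPC3-R (SE 0.15, adjusted p = 0.137). CTSS fell in both, by 0.35 (SE 0.11) and 1.85 (SE 0.11). CASP1, the inflammatory caspase that SERPINB9 can inhibit, rose in AsPC1-R by 1.93 (SE 0.18) and fell in BxPC3-R by 1.01 (SE 0.18), the first from a mean of 3.71 that may be background.

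The best known targets of SERPINB9 and SERPINB8 had no call in either derivative. GZMB, the target of SERPINB9, changed by -0.19 in AsPC1-R (SE 0.12, adjusted p = 0.290) and -0.01 in BxPC3-R (SE 0.12, adjusted p = 0.985). FURIN, the target of SERPINB8, changed by 0.14 (SE 0.11, adjusted p = 0.429) and 0.09 (SE 0.11, adjusted p = 0.664) in the same order. CTSG fell in AsPC1-R by 0.39 (SE 0.10) from a mean of 5.93 to 5.54. Both CTSG means lie under the array medians, and the GZMB means, from 6.47 to 6.94, lie near them. Whether these signals are background was not tested. The fall of CTSG and the lack of a call for GZMB are thus uncertain.

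**Figure D4:**
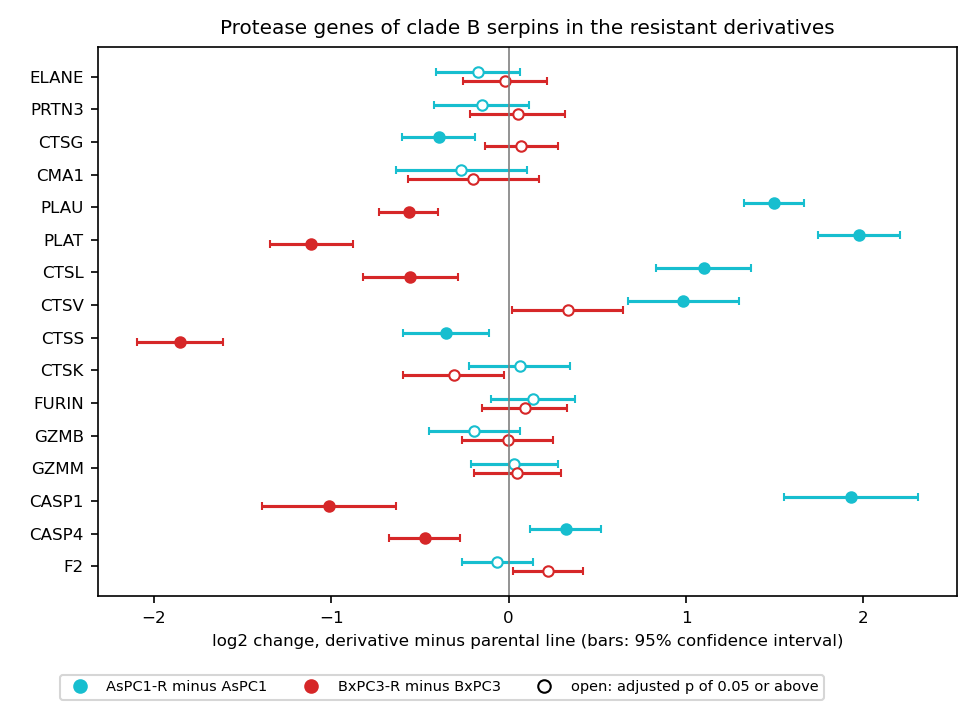
Log2 change of 16 genes for proteases inhibited by clade B serpins, in AsPC1-R against AsPC1 and in BxPC3-R against BxPC3 (horizontal axis), with 95% confidence intervals; open points have an adjusted p of 0.05 or above. PLAT stands at 1.98 and -1.11, CASP1 at 1.93 and -1.01, and CTSS at -0.35 and -1.85.

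Because SERPINB3, SERPINB4, SERPINB7 and SERPINB13 are typical of squamous epithelia, other squamous genes were set beside them. Of 16 listed, 13 were measured, and 11 were lower in AsPC1 than in BxPC3 and 0 higher, against 22.9% lower over all genes. CLCA2, KRT5, S100A2 and SPRR1B differed most, at -6.01 (SE 0.14), -5.93 (SE 0.13), -5.32 (SE 0.31) and -4.66 (SE 0.14). In BxPC3-R 5 rose and 2 fell, where 9.75% of all genes rose and 11% fell: the keratin gene KRT13 rose by 1.15 (SE 0.12) and SPRR3 by 0.95 (SE 0.15), while CLCA2 fell by 2.80 (SE 0.14) and SPRR1A by 0.84 (SE 0.17). In AsPC1-R 0 rose and 2 fell, against 11.6% and 8.64% of all genes: the desmosomal cadherin genes DSG3 by 1.20 (SE 0.10) and DSC3 by 0.45 (SE 0.14).

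Markers of leukocytes, which also make SERPINB1 and SERPINB9, were measured for 8 of 9 genes. Their mean log2 level ranged from 5.88 to 6.06 on the AsPC1 arrays, 5.98 to 6.11 in AsPC1-R, 5.74 to 5.98 in BxPC3 and 5.49 to 5.72 in BxPC3-R. In AsPC1-R 2 rose, CD68 by 0.72 (SE 0.09) and ITGAM by 0.43 (SE 0.14), and in BxPC3-R 2 fell, CD68 by 0.72 (SE 0.09) and CD3E by 0.47 (SE 0.13). PTPRC (CD45), carried by nearly all leukocytes, had group means between 3.19 and 3.27 in the 4 lines, and CD3D between 4.79 and 5.14. Not all were low: CD68 had means of 10.11 in AsPC1, 10.83 in AsPC1-R, 9.25 in BxPC3 and 8.53 in BxPC3-R. Of 4 endothelial markers, PECAM1 rose in AsPC1-R by 0.66 (SE 0.13), and 2 fell in BxPC3-R, CDH5 with a change of -2.67 (SE 0.15) and PECAM1 with -1.24 (SE 0.13). Of 6 fibroblast markers, LUM fell in AsPC1-R by 1.03 (SE 0.22) and rose in BxPC3-R by 1.53 (SE 0.22). Its means were 11.55 in AsPC1 and 10.51 in AsPC1-R, but 4.91 (SD 0.62) in BxPC3 and 6.45 in BxPC3-R. The size of the rise, from so low a level, is uncertain. The called shares are 2 of 8 leukocyte markers in each derivative, 1 of 4 and 2 of 4 endothelial ones and 1 of 6 fibroblast ones in each, beside 20.3% of all genes in AsPC1-R and 20.8% in BxPC3-R. The part of these genes in the serpin changes was not tested.

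The genes most like the members were found by the root mean square difference of the 4 group means after centring each gene. For SERPINB1 this was the interferon-inducible GTPase gene GBP2 at 0.13, with means of 9.26 in AsPC1, 9.31 in AsPC1-R, 8.91 in BxPC3 and 6.98 in BxPC3-R. SERPINB3 lay closest to CSTA, the gene of cystatin A, a cysteine protease inhibitor of squamous epithelia, at 0.30. SERPINB4 lay closest to the alarmin gene IL33 at 0.07, with means of 3.64, 3.81, 6.96 and 5.12 in the same order. For SERPINB13 it was RNF217 at 0.03, for SERPINB7 LINC02910 at 0.03, for SERPINB8 MED27 at 0.04, for SERPINB5 HAUS1 at 0.03 and for SERPINB9 ZNF570 at 0.11. With 4 group means among 18417 genes, a close match is a description of these lines alone.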

How the data were processed

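Total RNA of 12 samples was amplified, labelled with biotin and hybridized, per the labels' protocols. The authors deposited 1 log2 level per probe set. RMA in Affymetrix Expression Console is named in the submitters' processing notes: it subtracts background, equalises the arrays' distributions and summarises each probe set. Its version and the build were not given in the sources used. Of 33297 probe sets, 19460 had 1 gene symbol, 1754 several and 12083 none. Per gene the probe set with the highest mean over 12 arrays was used, which gave 18417 genes, with no filter on low values. limma 3.58.1 in R 4.3.3 (lmFit and eBayes) fitted a mean per line on all 12 arrays, two-sided, with Benjamini-Hochberg adjustment over all genes and a call at an adjusted p under 0.05. SE is limma's. The fit was tested on simulated data, with independent noise around a mean shared by all lines and with added changes. Such data cannot show how the fit handles technical replicates or an outlying array. All members were named, with up to 4 called genes per list and comparison, some fixed genes, the closest gene per member and 3 neighbours on each side of a cluster. Members and lists were chosen with earlier results of these data known. Promoter windows are RefSeq's. Alternatives were a replicate block, dim genes left out, 2 other scalings, eBayes with trend and robust, only the lines compared, the mean over probe sets, leaving out each array in turn, and a threshold of 0.01. Motifs were chosen with the lists.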

Additional observations from a re-analysis of the deposited data

Results flagged for a closer look

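A test of the difference between both derivatives' changes, (AsPC1-R minus AsPC1) minus (BxPC3-R minus BxPC3), passed for 6 of 8 measured members and for SERPINB10. It passed for 25.4% of all genes tested. On the log2 scale the difference was 1.58 for SERPINB1, 1.80 for SERPINB3, 2.15 for SERPINB4, 0.50 for SERPINB8 and 2.91 for SERPINB9. It was -0.55 for SERPINB5 and -0.85 for SERPINB10. For SERPINB3 and SERPINB4 the AsPC1 pair reads so low that a fall there could not have been seen. SERPINB10 read low as well, with means of 4.15 in AsPC1 and 4.12 in AsPC1-R, so a fall there could have been missed. Its means of 4.87 in BxPC3 and 5.68 in BxPC3-R are also low, so the size of its difference is uncertain.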

How the results depend on the processing

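With the replicate number as a block, limma called 4 members in each derivative, 6 by the interaction test and 8 in each comparison of AsPC1 with BxPC3 cells, as without it. No pairing by number was clear, but 3 arrays per line cannot exclude it. Over 18 pairs of same-numbered arrays the correlation of their deviations ran from -0.24 to 0.34 and passed 0.1 in 3. In no comparison of lines did every sample correlate best with its own number. The most were 4 of 6, for AsPC1 with BxPC3-R and for AsPC1-R with BxPC3. For AsPC1 with AsPC1-R it was 0 of 6, and for BxPC3 with BxPC3-R 3 of 6. Of the members' values under the alternatives, 788 kept their direction where called and their side of the threshold, and 4 lost the call: SERPINB1 in AsPC1-R in 3 (only the lines compared, without AsPC1-R replicate 1, and at an adjusted p under 0.01) and SERPINB8 in the interaction test at that stricter threshold. Part of this agreement was fixed in advance. Each measured member has 1 probe set, so the mean over probe sets leaves its values as they were. A derivative's change also stays the same when an array of the other line pair is left out. The stricter threshold cannot add a call. Leaving out single arrays gave 3 to 4 called members in AsPC1-R, 4 in BxPC3-R and 6 by the interaction test. Centring arrays on their medians moved the median of all genes by at most 0.056 in size. Levels near 4.7 or below limit what can be said of SERPINB3, SERPINB4, SERPINB7 and SERPINB13 in AsPC1 cells. Background can differ between probe sets, so a level above that may also be background.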

Other observations

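Serpins of other clades, mostly secreted, were measured for 19 of 21 listed genes. Of the 19, 2 were called in AsPC1-R and 3 in BxPC3-R, where 20.3% and 20.8% of all genes were. In AsPC1-R 2 rose and 0 fell: SERPINA1, the gene of alpha-1 antitrypsin, by 1.35 (SE 0.18, adjusted p = 1.11e-04) and SERPINI1, the gene of neuroserpin, by 0.42 (SE 0.11, adjusted p = 0.0122). In BxPC3-R SERPINE2, which encodes protease nexin, rose by 0.79 (SE 0.11), and SERPINI1 and SERPINA3 fell by 1.10 (SE 0.11) and 0.60 (SE 0.15). SERPINA1 started from a mean of 5.90 in AsPC1. SERPINI1 read 4.88 in AsPC1, 5.30 in AsPC1-R, 6.41 in BxPC3 and 5.31 in BxPC3-R. SERPINA3 read 6.01 in BxPC3 and 5.42 in BxPC3-R. These means lie under the array medians, so the sizes of these changes are uncertain. SERPINE2 also differed between the parental lines, from 12.68 ± 0.07 in AsPC1 to 10.47 ± 0.23 in BxPC3 (mean ± SD, n = 3). SERPINA1 changed by -0.40 in BxPC3-R (SE 0.18, adjusted p = 0.154), and its changes in the derivatives differed by 1.74 (SE 0.26, adjusted p = 1.78e-04).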
